A study of Homo sapiens with 2 samples.

Results

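Runs of 4 or more distal J76-only peaks were collected from the ATAC-seq peak lists of 2 human cell lines, and their positions, strength and neighbouring genes are described. A member was a J76 peak on chromosomes 1 to 22 or X that overlapped no 293T peak by even 1 bp and had its summit over 1 kb from every end of a protein-coding gene. Such peaks were joined where their edges lay within 12500 bp, and groups of at least 4 were kept as clusters. This gave 2045 members in 395 clusters, out of 26683 distal J76-only peaks, 58730 J76 peaks on these chromosomes and 145228 peaks in both lists together. Members made up 7.66% of the distal J76-only peaks (95% Wilson interval 7.35 to 7.99), a share that the rule itself fixes. Members were thus chosen by presence in the J76 list, absence from the 293T list, distance from gene ends and crowding, and these properties are not results.

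ATAC-seq measures accessible chromatin with the Tn5 transposase, which cuts open DNA and tags the cut ends for sequencing. Each reaction took 50000 cells in log-phase growth and a laboratory-made transposase. J76 is a line of acute T-lymphoblastic leukemia, a subline of Jurkat that lacks the T cell receptor chains. 293T, which the sample titles call T293, is an embryonic kidney line that carries the SV40 large T antigen. Each is a single established line with 1 library and 1 peak list, so differences between J76 and 293T are without replicates and were not tested. The lists hold no read counts, so depth is unknown, and a site without a peak was not shown to be closed. The labelled types were checked at gene ends, where a gene was counted if its start or its end had a peak within 1 kb. Internal starts were not counted, so a gene without a gene-end peak may still have a peak at another start. Of 16 T cell markers, 10 had such a peak in J76 only, while 3 had one in both lists and 3 had none. Of 8 kidney or epithelial markers, 1 had one in J76 only, 1 in both, 5 in 293T only and 1 in neither. Of 6 B cell markers, 0 had a peak in J76 only, 1 had one in both lists and 5 had none. Of 6 erythroid markers, 3 had one in J76 only and 3 had none; of 6 myeloid markers, 0 had one in J76 only, 2 in both lists and 2 in 293T only; and of 4 NK cell markers, 1 had one in J76 only and 1 in both lists. None of the erythroid, myeloid, B cell or NK markers lay within 50 kb of a J76 cluster or of a 293T cluster built by the same rule. Of the 16 T cell markers, 1 lay near a J76 cluster (TCF7) and 3 near a 293T cluster. Of 6 markers of T cell leukemia lines, 2 lay near a J76 cluster and 2 near a 293T cluster. Over all protein-coding genes the shares were 1.98% for J76 and 6.95% for 293T.

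As background, most lineage-specific open sites lie away from promoters and act as enhancers, which are bound by the transcription factors that set a cell's identity. In lymphoid cells these include RUNX, ETS, GATA, E-box binding and Ikaros family factors. Enhancers that lie close together along a chromosome are often stitched into one unit, a practice used to define super-enhancers from histone or cofactor signals. Other kinds of region can hold many peaks in a row. Centromeres are built of tandem satellite repeats, and the antigen receptor loci hold long arrays of related variable segments that lymphocytes cut and join.

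The sequences shown lie around annotated transcription starts, and a member peak overlapped all or part of each. These members were the ones for which letters were available. The sequences come from the RefSeq start windows of GRCh38.p14, each running from 250 bases before to 50 bases after a start, 5′ to 3′ on the strand of the gene. At HEMGN and GRAP2 the peak overlapped the window but did not reach the start itself. Capitals mark matches, on either strand, to the letters of 8 motifs (RUNX, ETS, GATA, 2 E-boxes, TCF/LEF, AP-1 and Ikaros, spelled out with their shares at the end). The choice of these 7 was made with their values known, for genes with a role in blood cells or for a strong peak.
RHOH, chr4:40196781-40197080, plus strand: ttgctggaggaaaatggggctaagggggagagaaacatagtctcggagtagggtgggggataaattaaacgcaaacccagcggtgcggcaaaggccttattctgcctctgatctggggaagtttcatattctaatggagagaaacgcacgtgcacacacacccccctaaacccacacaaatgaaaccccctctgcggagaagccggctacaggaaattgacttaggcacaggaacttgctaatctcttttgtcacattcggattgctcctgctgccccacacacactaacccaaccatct
HEMGN, chr9:97938123-97938422, minus strand: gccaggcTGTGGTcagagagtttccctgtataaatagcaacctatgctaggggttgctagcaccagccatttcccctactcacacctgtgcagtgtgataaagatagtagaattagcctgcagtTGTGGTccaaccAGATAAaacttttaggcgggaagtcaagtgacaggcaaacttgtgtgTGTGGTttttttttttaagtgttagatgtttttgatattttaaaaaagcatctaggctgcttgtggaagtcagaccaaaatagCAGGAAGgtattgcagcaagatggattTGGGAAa
GRAP2, chr22:39926354-39926653, plus strand: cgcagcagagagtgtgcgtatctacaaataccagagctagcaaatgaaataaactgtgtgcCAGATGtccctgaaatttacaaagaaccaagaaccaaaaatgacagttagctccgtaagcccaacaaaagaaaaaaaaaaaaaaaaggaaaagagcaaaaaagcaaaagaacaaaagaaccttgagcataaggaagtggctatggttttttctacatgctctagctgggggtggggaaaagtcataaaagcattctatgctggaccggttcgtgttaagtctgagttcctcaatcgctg
ELF4, chrX:130086884-130087183, minus strand: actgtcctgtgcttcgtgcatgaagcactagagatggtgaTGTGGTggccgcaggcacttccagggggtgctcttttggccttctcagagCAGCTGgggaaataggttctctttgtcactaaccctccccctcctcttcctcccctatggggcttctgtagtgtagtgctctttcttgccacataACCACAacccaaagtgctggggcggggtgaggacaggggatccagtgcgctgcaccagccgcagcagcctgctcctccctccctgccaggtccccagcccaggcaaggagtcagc
HDAC4, chr2:239298481-239298780, minus strand: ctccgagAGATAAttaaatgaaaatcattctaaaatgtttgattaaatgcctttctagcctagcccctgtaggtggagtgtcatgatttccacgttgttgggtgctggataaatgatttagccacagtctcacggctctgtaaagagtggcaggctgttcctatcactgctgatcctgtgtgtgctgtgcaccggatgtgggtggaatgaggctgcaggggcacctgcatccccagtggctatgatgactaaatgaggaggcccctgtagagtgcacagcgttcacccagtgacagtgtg
LOC105375059 (in CCND3), chr6:42010463-42010762, plus strand: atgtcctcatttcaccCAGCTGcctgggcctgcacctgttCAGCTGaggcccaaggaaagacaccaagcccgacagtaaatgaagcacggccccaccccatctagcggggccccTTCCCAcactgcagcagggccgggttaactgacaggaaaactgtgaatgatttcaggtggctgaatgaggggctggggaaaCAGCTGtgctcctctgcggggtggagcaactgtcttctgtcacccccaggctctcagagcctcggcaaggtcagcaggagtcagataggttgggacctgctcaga
LOC107986186 (in BST1), chr4:15756377-15756676, minus strand: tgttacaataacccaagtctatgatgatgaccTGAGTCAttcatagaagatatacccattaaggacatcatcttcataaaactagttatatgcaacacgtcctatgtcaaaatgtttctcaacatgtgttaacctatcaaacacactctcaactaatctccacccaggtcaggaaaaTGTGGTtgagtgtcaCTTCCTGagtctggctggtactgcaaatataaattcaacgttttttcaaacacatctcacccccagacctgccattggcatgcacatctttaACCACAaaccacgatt

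RHOH encodes a signalling protein of blood cells that is needed for T cell receptor signalling, and its window held none of the 8 motifs. The peak over it had a fold of 3.62 (fold is the authors' enrichment over background at the summit). HEMGN encodes hemogen, a nuclear protein of blood progenitors. Its window held 6 matches, of which 3 were RUNX letters. A peak of fold 6.84 lay over 227 bases of the window, and the ETS and Ikaros matches lay outside the peak. GRAP2 encodes the adaptor Gads, which links LAT to SLP-76, and 144 bases of its window lay under a peak of fold 3.31. ELF4 encodes an ETS-family factor of lymphocytes, and its peak had a fold of 5.63. The HDAC4 window, at an internal start of a class IIa histone deacetylase gene, lay under a peak of fold 9.34. LOC105375059 is a long noncoding RNA inside CCND3, the gene of a D-type cyclin, and lay under a peak of fold 9.86. LOC107986186 is a long noncoding RNA inside BST1, which like its neighbour CD38 encodes an NAD-consuming ectoenzyme, and lay under a peak of fold 7.52.

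Clusters were mostly short and small. Their span had a median of 20.6 kb (interquartile range 13.8 to 26.7), with extremes of 1.66 and 156 kb, and together they spanned 9.10 Mb. Of the 395 clusters, 220 held exactly 4 members, 91 held 5 and 32 held 6. Only 16 held 10 or more, and the largest held 34. Neighbouring members were separated by a median of 4.72 kb. At the threshold, the 757 groups of 3 peaks that just missed it had a median span of 10.9 kb, a median fold of 3.77 and a median −log10 q of 6.70. The 220 groups of 4 that just passed it had 15.6 kb, 3.86 and 7.42. The median peak width was 324 bp in groups of 3 and 333.5 bp in groups of 4. The groups on either side of the threshold thus differed little in strength or width.

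**Figure D1:**
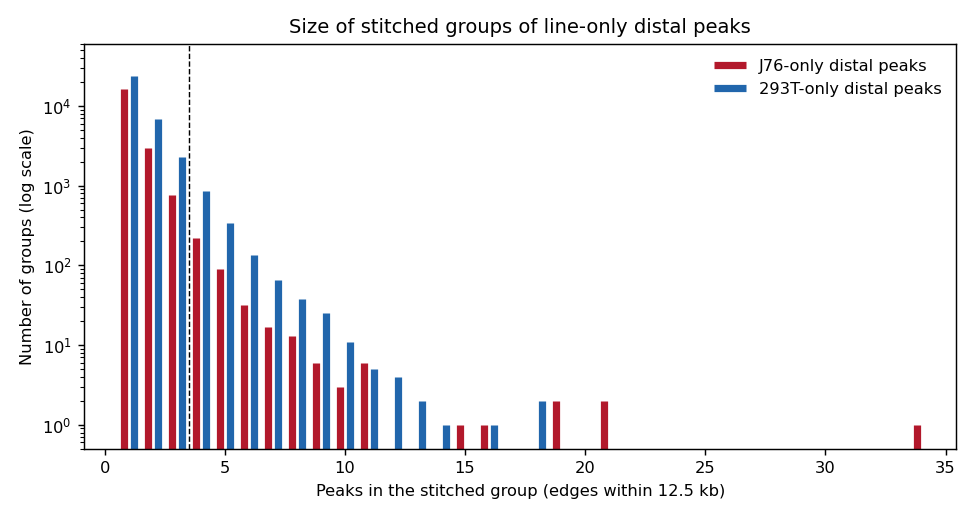
Number of stitched groups (log scale) by the number of line-only distal peaks they hold, for J76 and for 293T; the dashed line marks the minimum of 4 for a cluster. Both lines fall off steeply, 293T has more groups up to 10 peaks, and groups of 19 or more peaks, up to 34, are from J76.

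The same rule turned round, with distal 293T-only peaks, gave more clusters. J76 had 395 clusters and 293T had 1503, a ratio of 0.263. In 293T 14.2% of the 51395 distal line-only peaks were clustered. This order depended on the lengths of the lists. With the same number of peaks taken from each list by −log10 q, 58730, J76 had 480 clusters and 293T had 369, a ratio of 1.3. When gene-free stretches (defined next) were dropped as well, J76 had 332 and 293T had 364, a ratio of 0.912. Which line had more clusters thus changed with the number of peaks taken and with these stretches.

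Most of the largest J76 clusters lay in long stretches of chromosome with no annotated gene. A gene-free stretch was taken as over 1 Mb without a RefSeq gene of any type, and 30 such stretches cover 183 Mb. Many of them span centromeres, which GRCh38 fills with modelled satellite arrays. They held 117 J76 clusters with 760 members, 37.2% of all members, against 34 293T clusters with 166 peaks, 2.27% of clustered 293T peaks. Of the 1872 distal J76-only peaks inside such stretches, 40.6% were clustered (38.4 to 42.8), against 5.18% (4.91 to 5.46) of the 24811 outside. In 293T the shares were 17.8% (15.4 to 20.3) inside and 14.1% (13.8 to 14.5) outside. Of the groups of 3 peaks 12.8% lay in such a stretch, and of the groups of 4 peaks 18.2%. The handling of reads that map to several places is not stated in the labels, and its part in these clusters was not tested.

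Of the gene-free stretches, that on chromosome 10 held the most members. From 38719383 to 42149318 it held 17 clusters with 187 members in J76, against 5 clusters in 293T. In this stretch J76 had 314 peaks, 81 of them shared, and 293T had 149. The largest cluster of all lay there, chr10:40891824-41048160, with 34 members over 156 kb. Its folds ranged from 2.85 to 9.22, and 6 293T peaks lay between its members. Of the 15 clusters with the most members, 12 were in gene-free stretches, 7 of them on chromosome 10 (34, 21, 19, 16, 15, 11 and 11 members). The others were on chromosome 20 (21 members), chromosome 5 (19), chromosome 12 (11), chromosome 1 (11) and chromosome 19 (10).

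Other chromosomes differed widely in how much of their gene-free sequence was clustered. The stretch on chromosome 5 held 117 members in 19 J76 clusters, that on chromosome 1 113 members in 20, that on chromosome 19 91 members in 16, that on chromosome 12 70 members in 13 and that on chromosome 20 59 members in 9. In 293T these 5 stretches together held 1 cluster on each of chromosomes 5, 12 and 19 and none on 1 and 20. The reverse was seen on chromosome 7, where a stretch with 29 J76 and 214 293T peaks held 0 J76 clusters and 19 293T clusters. On chromosome 4 a stretch held 104 J76 and 158 293T peaks, with 0 J76 and 5 293T clusters. The centromere stretch of chromosome X held 0 J76 peaks and 9 293T peaks. The pattern therefore differed by chromosome and by line, and was not one of uniformly more peaks in J76.

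**Figure D2:**
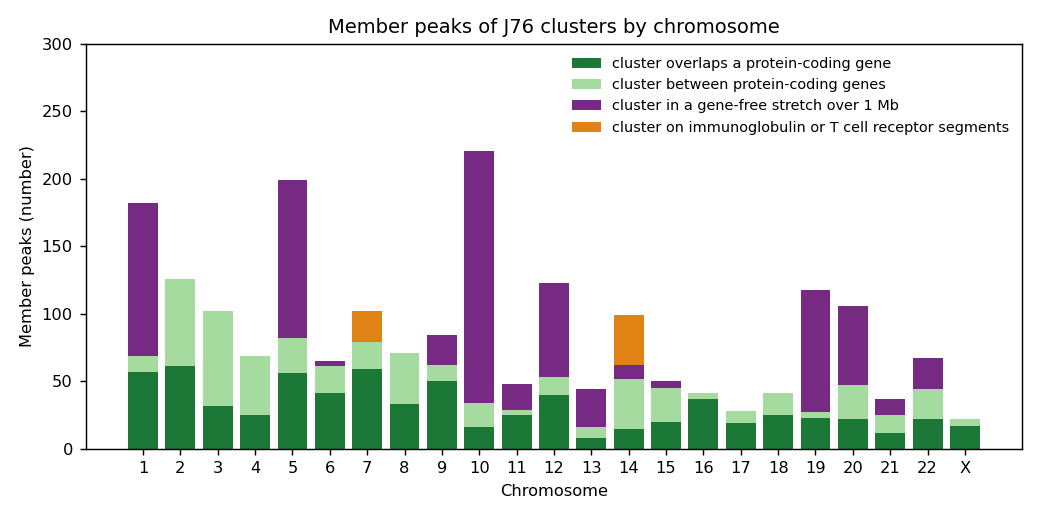
Member peaks of J76 clusters on each chromosome, stacked by where their cluster lies. Chromosomes 10, 5, 1 and 19, among others, have most of their members in gene-free stretches (purple), while chromosomes 2, 3 and 4, among others, have none there, and chromosome 14 stands out by its receptor segments (orange).

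Outside the gene-free stretches the 2 largest clusters lay in genes of blood cell transcription factors. IKZF1, which encodes the lymphoid factor Ikaros, held 11 members from chr7:50333307-50379373. Along the gene their folds were 2.54, 2.69, 2.54, 3.00, 3.64, 2.34, 2.97, 2.5, 7.02, 4.31 and 2.75. One member stood well above the rest, and no 293T peak lay within the span. The ends of IKZF1 had a peak in both lists, with a fold of 3.81 in J76 and of 6.61 in 293T.

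ETV6, which encodes an ETS-family repressor needed for blood stem cells and often rearranged in childhood leukemia, held 11 members from chr12:11745985-11813590. Their folds were 3.29, 2.98, 4.32, 2.24, 2.66, 3.83, 2.98, 4.55, 3.16, 4.95 and 5.91. They were spread over 67.6 kb, and no 293T peak lay within the span, although 4 distal 293T-only peaks lay elsewhere in the gene. RUNX1, which encodes a factor of blood stem cells and T cells, held 2 clusters of 4 members each. The cluster chr21:35004737-35027517 had folds of 3.45, 4.17, 2.92 and 7.87, and the cluster chr21:34923191-34947121 had 5.12, 3.27, 4.70 and 3.66. Neither span held a 293T peak, and the RUNX1 gene ends had a peak in J76 only, of fold 3.87. In all, RUNX1 held 18 distal J76-only and 10 distal 293T-only peaks.

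The neighbouring ETS-family genes FLI1 and ETS1 on chromosome 11 each held a cluster. FLI1, a regulator of blood and vessel development, had 6 members with folds between 2.59 and 5.36, with 1 293T peak in the span. ETS1, which acts in lymphocyte development, had 5 members with folds between 2.98 and 6.80 and no 293T peak in the span. Neither gene had a peak at its ends in either list, a count that leaves out internal starts. SATB1, a chromatin organiser of thymocytes, held 5 members (folds 3.16 to 3.87), and FOXP1, which keeps T cells quiescent, held 4 (3.52 to 7.16), with no 293T peak in either span. Both had gene-end peaks in both lines. Over the whole gene, FOXP1 held 8 distal J76-only and 38 distal 293T-only peaks, so peaks of the kidney line were the more numerous there. SATB1 held 5 and 1, FLI1 6 and 4, and ETS1 7 and 6, in the same order. TCF7, KLF2, TOX and NOTCH1 had a cluster within 50 kb but none overlapping them. TCF7, which encodes the T lineage factor TCF1, lay beside a cluster of 5 over VDAC1 and had no gene-end peak in either list. NOTCH1, the receptor most often mutated in T cell leukemia, had 3 members within 50 kb.

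**Figure D3:**
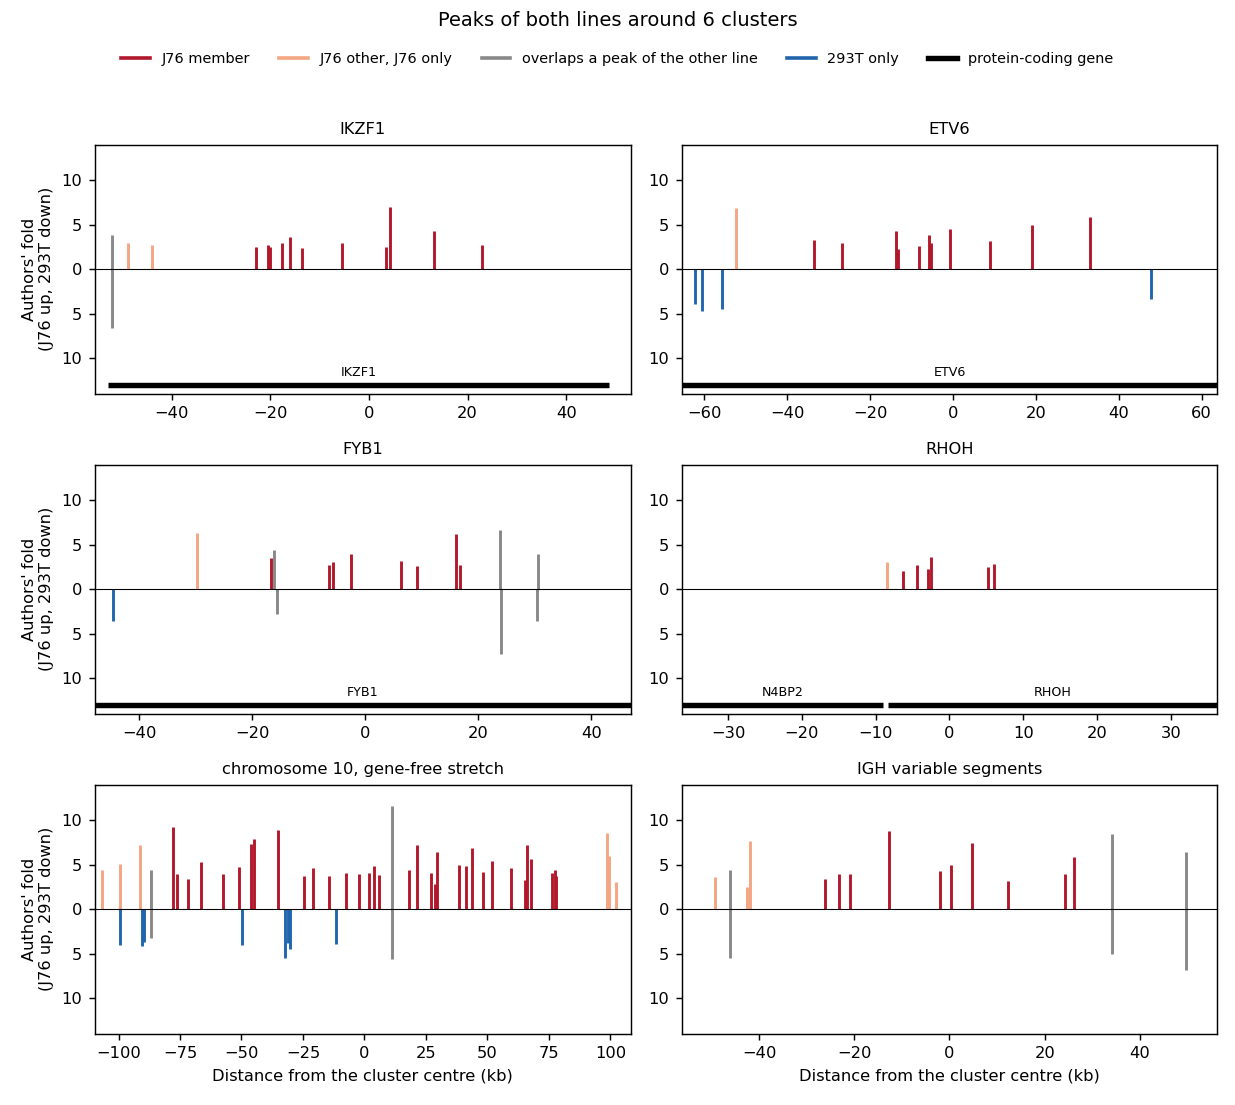
Peaks around 6 clusters, by distance of the summit from the cluster centre in kb; the height of a line is the authors' fold, J76 upwards and 293T downwards, and black bars are protein-coding genes. At IKZF1, ETV6 and RHOH the spans of the members hold no 293T peak, at FYB1 a shared pair lies between the members, and on chromosome 10 peaks found in 293T only lie among 34 members.

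Of the genes of T cell receptor signalling, 7 overlapped a cluster. FYB1, which encodes the adaptor ADAP that couples the receptor to integrins, held 8 members from chr5:39176967-39210871. Their folds were 3.47, 2.72, 3.11, 3.97, 3.16, 2.65, 6.20 and 2.68, and 1 293T peak lay in the span. SKAP1, the partner of ADAP, had a cluster of 5 members (2.81 to 5.44) across one end, 3 of them inside the gene. GRAP2 held 5 (2.74 to 4.66), as did NFATC1, a calcium-regulated factor switched on by the receptor (2.85 to 3.58). DGKZ, a lipid kinase that damps the signal, shared a cluster of 5 with its neighbour CREB3L1 (2.48 to 3.65). LCP2, which encodes SLP-76, held 4 (2.34 to 7.72), and PTPRC, which encodes the phosphatase CD45, held 4 (2.07 to 5.28). The spans at SKAP1, GRAP2, NFATC1 and PTPRC held no 293T peak, those at DGKZ and LCP2 held 2 each. Over the whole gene, FYB1 held 9 distal J76-only and 1 distal 293T-only peaks, GRAP2 7 and 0, LCP2 4 and 1, NFATC1 7 and 5, PTPRC 6 and 5, DGKZ 3 and 3 and SKAP1 4 and 5. A further cluster of 8 members (2.24 to 9.25) lay between genes on chromosome 1, 253 kb from PTPRC, its nearest protein-coding neighbour.

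RHOH had the closest spacing among clusters of at least 6 members. Its 6 members lay within 12.6 kb, at 4.74 per 10 kb, with folds of 2.05, 2.73, 2.28, 3.62, 2.48 and 2.80. All 6 folds were below the member median of 3.81, although 1 of the peaks had a −log10 q of 25.9. No 293T peak lay in the span, and the RHOH gene ends had a peak in J76 only (fold 3.21). Next in spacing was a cluster of 7 on chromosome 8 over TG, the thyroglobulin gene, and the gene SLA nested in it, which encodes an adaptor that lowers T cell receptor levels. It had 4.35 members per 10 kb with folds of 2.61 to 5.38 and no 293T peak in the span. TG and SLA overlap, so these peaks are not assigned to either. The SLA gene ends had a peak in 293T only (fold 3.34), and those of TG had none in either list. Over the whole gene, TG held 11 distal J76-only and 5 distal 293T-only peaks, and SLA held 7 and 2. The others of the 5 densest were a cluster of 8 between EPHA3 and PROS1 on chromosome 3 (3.78 per 10 kb), a gene-free cluster of 6 on chromosome 12 (3.41) and a cluster of 8 over T cell receptor beta segments (3.35). That on chromosome 3, chr3:90874090-90895265, lay far from both genes, 1392 kb from EPHA3 and 2978 kb from PROS1. It was not counted as gene-free, as the gene-free stretch of that chromosome starts at 91513776. Values for clusters between genes and outside gene-free stretches therefore include it, and whether it lies in satellite repeats was not tested.

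Other host genes act in many tissues. IGF2R, the receptor that removes insulin-like growth factor 2, held 9 members with folds of 2.59 to 9.14. HDAC4 held 6 with 3.21 to 9.34, and CCND3 had 6 with 3.15 to 9.86. CHST11, a chondroitin sulfotransferase gene, held 11 members in 2 clusters. These 4 were named after their values were seen. Of the 162 host genes, 56 held no distal 293T-only peak and 16 held more distal 293T-only than J76-only peaks. Overlap with a 293T cluster was seen in 13 of them.

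The single strongest members were not in the genes above. The highest fold, 13.6, belonged to a member in the gene-free stretch of chromosome 12, and the next, 12.8, to one in that of chromosome 10. They were followed by a member inside XKR6 on chromosome 8 (12.4), one between DEFB131A and SLC2A9 on chromosome 4 (11.9) and one in the cluster over HEMGN (11.5). That cluster had 5 members, with folds of 3.43, 3.90, 6.84, 11.5 and 4.10, and no 293T peak in the span. The first 3 lay inside HEMGN, and the other 2, the strongest among them, lay upstream of the gene, which is on the minus strand.

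Antigen receptor segments carried 9 clusters with 60 members, against 2 clusters with 10 peaks in 293T. The immunoglobulin heavy chain locus on chromosome 14 had 5 of the clusters. Over its 1293 kb J76 had 96 peaks, 37 of them members, and 293T had 44. The largest cluster, chr14:106714621-106767201, held 10 members across 5 variable segments from IGHV1-69 to IGHV1-69D, with folds of 3.20 to 8.81 and no 293T peak in the span. Of these 10 members, 2 lay on a segment itself and the others between segments. The T cell receptor beta locus on chromosome 7 held 3 clusters, and there J76 had 53 peaks and 293T had 39. A cluster of 8 lay over TRBV1 to TRBV4-1, where 6 members were on a segment and 3 293T peaks lay in the span. A cluster of 5 lay over the joining and constant segments from TRBD1 to TRBC2, with no 293T peak. The gamma locus on chromosome 7 held a cluster of 6 over TRGV1 to TRGV5P, with 6 293T peaks in the span.

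The other receptor loci held no cluster. Over the alpha locus J76 had 15 peaks and 293T had 19, over the delta locus within it 0 and 4, over the kappa light chain locus 27 and 46, and over the lambda locus 34 and 21. Variable segments resemble one another, so the placing of peaks among them is uncertain. Whether rearranged or lost segments in J76 bear on these counts was not tested.

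Members were about as strong as other distal J76-only peaks and weaker than distal peaks that 293T shared. The median fold was 3.81 in members, 3.95 in the 24638 distal J76-only peaks outside clusters and 5.40 in the 19912 distal J76 peaks shared with 293T. The median −log10 q was 7.18, 6.26 and 13.3, in that order, and the median width 339, 299 and 349 bp. A −log10 q of at least 50 was reached by 2.20% of members, 1.57% of other distal J76-only peaks and 10.2% of shared ones. Among members, those in gene-free stretches had a median fold of 3.95 but a −log10 q of 6.06. Those in clusters that overlap genes had 3.75 and 8.51, those between genes 3.65 and 7.28, and those on receptor segments 4.17 and 9.92. Clustered 293T-only peaks had a median fold of 3.55, and 293T-only distal peaks outside clusters 3.77. Folds come from lists that were made separately and are set side by side here only as a description of each list.

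**Figure D4:**
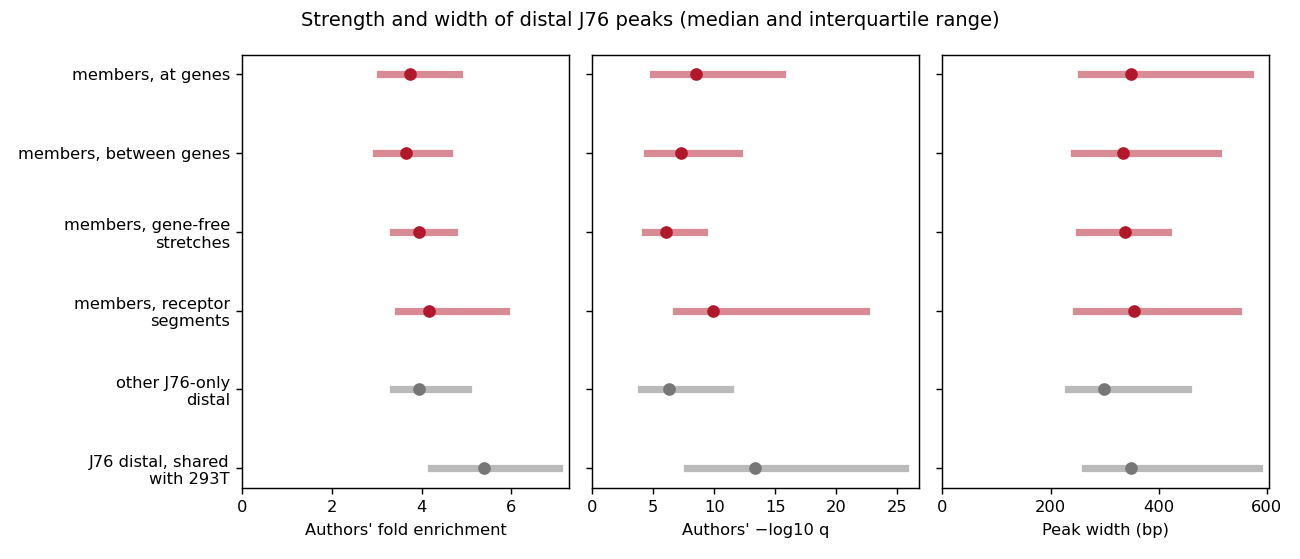
Authors' fold, −log10 q and peak width of members by the place of their cluster (red) and of the other distal J76 peaks (grey), with the median as a point and the interquartile range as a bar. The red medians lie near that of other J76-only peaks and all lie below the shared peaks in fold and −log10 q.

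Seen from their genomic position, 30.4% of members (28.4 to 32.4) had their summit inside a protein-coding gene, or 48.3% (45.6 to 51.1) once gene-free stretches were left out. The share was 43.4% (42.8 to 44.0) in other distal J76-only peaks and 42.4% (41.7 to 43.1) in shared distal peaks. By cluster, 157 overlapped a protein-coding gene (715 members) and 112 lay between genes (510 members). The 112 lay a median of 48.0 kb from the nearest protein-coding gene (interquartile range 22.3 to 149). The farthest lay 2956 kb away, so clusters between genes include some far from any protein-coding gene. Members seldom overlapped the window of an annotated start. A start window was overlapped by 1.47% of members (1.03 to 2.09), 1.86% of other distal J76-only peaks (1.70 to 2.04) and 9.14% of shared distal peaks (8.75 to 9.55). A member's summit had to be over 1 kb from a protein-coding gene end, so these starts are internal ones or belong to noncoding genes.

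The spans of the clusters were not empty of 293T peaks. Over the 9.10 Mb J76 had 248 peaks per Mb and 293T had 41.1, against 19.4 for J76 and 28.0 for 293T over all of chromosomes 1 to 22 and X. The J76 density follows from the rule. No 293T peak lay in 228 of the 395 spans. By kind, 107 of 157 spans that overlap genes, 76 of 112 between genes, 40 of 117 in gene-free stretches and 5 of 9 on receptor segments held none. The 293T density was 24.3 per Mb in spans that overlap genes, 27.9 between genes, 62.1 in gene-free stretches and 45.9 on receptor segments. Outside gene-free stretches and receptor segments it was thus near the level of all chromosomes, and in gene-free stretches it was higher. Of the 374 293T peaks in spans, 163 overlapped no J76 peak, and 10 J76 clusters overlapped a 293T cluster.

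Most genes that held a J76 cluster had gene-end peaks in both lines, as did most protein-coding genes. Of the 162 host genes, 20 had a gene-end peak in J76 only (12.3%, 8.14 to 18.3), against a background of 3.95% over all 19821 protein-coding genes. A gene-end peak in both lines was found in 95 of them (58.6%, against 61.1% of all genes), in 293T only in 11 and in neither in 36. Among the 393 genes within 50 kb of a cluster, 36 had one in J76 only (9.16%, 6.69 to 12.4). Host genes were long, with a median of 118 kb against 24.5 kb over all genes, and a long gene offers more room for a cluster. The J76-only share was not set against genes of the same length.

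Gene lists of T cell function had more genes beside J76 clusters than protein-coding genes as a whole. Within 50 kb of a J76 cluster lay 1.98% of protein-coding genes, and 0.817% overlapped one. Within 50 kb of a 293T cluster lay 6.95%. Of 110 genes in 3 lists of T cell function, 19 were within 50 kb of a J76 cluster (17.3%, 11.3 to 25.4), 15 within 50 kb of a 293T cluster (13.6%) and 3 of both. Median gene length was 75.5 kb in the receptor signalling list, 24.3 kb in the surface receptor list and 68.8 kb in the transcription factor list, against 24.5 kb over all genes. Among genes over 100 kb, 11 of 33 list genes (33.3%) lay near a J76 cluster against 3.64% of all such genes. Among genes under 10 kb, 2 of 23 did (8.70%), against 1.49% of all. Between these lengths it was 0 of 15 at 10 to 25 kb, against 1.33% of all. At 25 to 50 kb it was 2 of 24 (8.33%, against 1.85%), and at 50 to 100 kb 4 of 15 (26.7%, against 2.18%).

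T cell receptor signalling had 7 of 32 genes near a J76 cluster (21.9%) and 3 near a 293T cluster (9.38%), and all 7 overlapped their cluster. They were FYB1, SKAP1, DGKZ, NFATC1, GRAP2, LCP2 and PTPRC. T lineage and leukemia transcription factors had 10 of 42 near a J76 cluster (23.8%) and 11 near a 293T cluster (26.2%), against backgrounds of 1.98% for J76 and 6.95% for 293T. T cell surface receptors had 2 of 36, the inhibitory receptor gene PDCD1 and CD38, and 1 near a 293T cluster. PDCD1 had a gene-end peak in J76 only (fold 4.24), and CD38 in both lists, with 5.41 in J76 and 5.69 in 293T.

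Leukocyte adaptors and actin regulators had 6 of 37 near a J76 cluster and 3 near a 293T cluster. They were RHOH, VAV3, PTPRC, TNFAIP8, TRAF1 and ELMO1. VAV3, a signalling protein of lymphocytes, held 6 members with folds of 2.29 to 5.32, and 2 293T-only peaks lay in the span. Over the whole gene it held 16 distal J76-only and 27 distal 293T-only peaks. ELMO1, which works with DOCK proteins in migration, held 4 members with a highest fold of 7.89, among 16 distal J76-only and 8 distal 293T-only peaks. TNFAIP8 held 7 distal J76-only and 14 distal 293T-only peaks. Cytokines and their receptors had 2 of 33 near a J76 cluster, IL10 and IL7R, and 1 near a 293T cluster. IL10 and IL7R each had a gene-end peak in J76 only (5.09 and 3.97). IL10, an anti-inflammatory cytokine, overlapped a cluster of 4, and IL7R, which supports T cell precursors, lay beside one of 4. Homing and chemokine receptors had 2 of 23 in J76 and 0 in 293T. These were CCR8, with a gene-end peak in J76 only (4.61), and the integrin gene ITGA4, with one in both lists, at 7.5 in J76 and 10.1 in 293T.

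The remaining lists were seldom beside a J76 cluster. Several are of other cell types, but V(D)J recombination is a process of lymphocytes. None of 16 B cell, 16 myeloid, 16 erythroid and megakaryocyte, 18 kidney, 18 neuronal or 20 ribosomal protein genes and none of 10 V(D)J recombination genes lay within 50 kb of one. In lists of this size 1.98% of genes would come to less than 1 gene. Of 16 NK and cytotoxic genes 1 did, the protease gene GZMB, and of 20 YAP, TEAD and adhesion genes 1 did, FRMD6, which acts upstream in the Hippo pathway. Near 293T clusters lay 4 of the 18 kidney genes (22.2%), 6 of the 20 YAP, TEAD and adhesion genes (30%), 2 of the 18 neuronal genes and 1 of the 10 recombination genes.

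**Figure D5:**
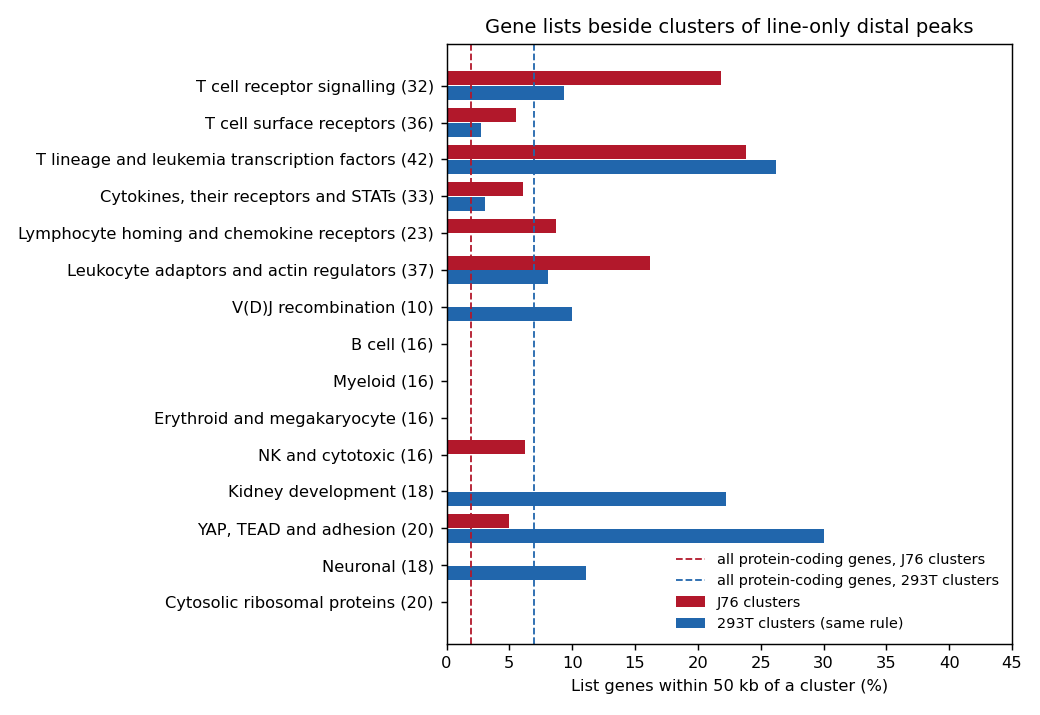
Share of each gene list (number of genes in brackets) within 50 kb of a J76 cluster (red) and of a 293T cluster (blue); the dashed lines mark all protein-coding genes, at 1.98% and 6.95%. T cell receptor signalling and leukocyte genes reach further in red, kidney and YAP genes in blue, and T lineage factors lie above the dashed line of either colour.

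A member overlapped the window of an annotated start in few places, and these windows were described by their letters. In all, 30 members overlapped 33 start windows of 29 genes, 13 windows of 10 protein-coding genes and 20 of long noncoding RNAs. These are called covered windows here, although a member may lie over only part of a window and miss the start. Letters were counted over whole windows, so a match can lie outside the member, as the TCF/LEF match did. Some windows overlap and share letters, so the same match can count in more than 1 window. The RUNX letters TGTGGT, on either strand, were in 11 of the 33 windows (33.3%) and in 13.1% of all 35116 start windows. The letters AGATAA of the GATA motif were in 21.2% of the covered windows and 10.3% of all, and the E-box CAGATG in 30.3% and 14.7%. The ETS letters CAGGAAG were in 21.2% of the covered windows and 12.7% of all, and the Ikaros letters TGGGAA in 33.3% and 24.0%. The E-box CAGCTG was in 21.2% of the covered windows and 17.9% of all. The TCF/LEF letters CTTTGA were in 1 window (3.03%, against 12.9% of all) and the AP-1 letters TGACTCA in 1 (3.03%, against 4.95%). Matches of different motifs may overlap. The covered windows are internal starts or starts of noncoding genes, while all start windows also include the outer starts of protein-coding genes. The sets are thus unlike, and the shares do not single out the clusters. Start windows under other distal J76-only peaks were not set beside them. With 33 windows a single window is worth 3.03%, and a match describes letters, not binding.

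Among the covered windows were those of 2 further genes of immune cells, named after their values were seen. LAIR1, which encodes an inhibitory collagen receptor of leukocytes, had 2 covered windows (folds 4.62 and 3.89), and TNFRSF14, which encodes the receptor HVEM, had 1 (3.06). Of microRNA hairpins, 4 lay within cluster spans, and a member peak covered 1 of them, MIR4437 on chromosome 2, with a fold of 6.36. Its cluster of 4 lay 144 kb from ITGA4, the nearer of its protein-coding neighbours. The mature sequence from RefSeq has its seed, bases 2 to 8, in capitals.
hsa-miR-4437: uGGGCUCAggguacaaagguu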

How the data were processed

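Peak lists of 2 ATAC-seq libraries were used, 1 from J76 and 1 from 293T. The submitters' processing notes list Bowtie2, a read aligner, and MACS2, a peak caller. Not given in the sources used here were versions, settings, duplicate removal, any shift of cut positions and the genome build. The lists were deposited by the authors in narrowPeak layout. The authors' fold enrichment at the summit is a linear ratio, the authors deposited p-values and q-values as −log10 values, and the deposited integer score was the −log10 q times 10, without decimals, in 100% of J76 peaks. They served to describe and rank peaks of 1 list at a time. No J76 peak had a −log10 q under 1.32 and no 293T peak one under 1.37. The lists carry scaffold names of GRCh38, and positions are given in that build, counted from 1.

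The gene table was RefSeq's for GRCh38.p14, with 19821 protein-coding genes after 153 entries with scaffold coordinates were left out. No genome sequence was used, so a planned motif readout in peaks was replaced by RefSeq start windows. Clusters were built in Python 3.11.15 with pandas 2.3.3, after the code was tested on simulated peaks. Intervals of shares are 95% Wilson intervals and hold counting error alone, and the interval of a median fold comes from order statistics. The rule for 293T mirrored that for J76. The members and the 15 gene lists were chosen with earlier results of these data known, so counts over lists are descriptions. Named by rule were the 15 clusters with the most members, the 5 densest among those with at least 6, the 5 members with the highest fold and, per list, up to 10 genes within 50 kb of a cluster; other names were chosen after their values were seen. No test between the lines was possible with 1 library each. Alternatives changed the stitching distance, the minimum number of peaks, the −log10 q, the separation from 293T peaks and from gene ends, the number of peaks per list and the window around genes; leaving out gene-free stretches, alone or with lists of equal length, and keeping the scaffold genes were added after seeing the data.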

Additional observations from a re-analysis of the deposited data

How the results depend on the processing

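The clusters have no natural edge, and their number follows the settings. Of 104 values recomputed under other settings, 46 stayed within 1.5 times the reported count or within the interval of the reported share or median, and 58 did not; the cause was not tested beyond what each setting removes or adds. Stitching at 5 kb gave 77 clusters, 339 members (1.27% of distal J76-only peaks, 27.1% of them inside genes, median fold 3.5), 5 T cell list genes and 0.247% of all genes within 50 kb. Stitching at 25 kb gave 848 clusters, 4949 members (18.5%, 35.1% inside genes), 34 list genes and 6.55% of all genes. A minimum of 3 peaks gave 1152 clusters, 4316 members (16.2%, 36.2% inside genes), 31 list genes and 6.86% of all genes. A minimum of 6 gave 84 clusters, 710 members (2.66%, 15.9% inside genes, median fold 3.89), 3 list genes and 0.167% of all genes.

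A −log10 q of at least 5 in both lists gave 194 clusters, 1013 members (5.56%, median fold 4.22), 11 list genes and 0.938% of all genes. At 10 there were 40 clusters, 182 members (1.79%, median fold 5.06), 4 list genes and 0.247% of all genes, and the ratio of J76 to 293T clusters was 0.513. With no 293T peak allowed within 1 kb, members were 6.74% of distal J76-only peaks and 1.55% of genes lay near a cluster, a share that summits over 2.5 kb from gene ends gave too (1.55%). The same number of peaks per list gave a share of 9.08%, 27.5% inside genes, 2.33% of genes near a cluster and a ratio of 1.3, which turned the order of the lines; without gene-free stretches as well the ratio was 0.912. Without gene-free stretches over 1 Mb there were 1285 members (5.18%, 48.3% inside genes, median fold 3.73), and without those over 0.5 Mb 1263 (5.15%, 49.2%, 3.73). Windows of 0, 10 and 100 kb around genes gave 0.817%, 1.06% and 3.10% of all genes. With the scaffold genes kept, the 8 values stayed the same or within their intervals. The share of T cell list genes near a cluster stayed above that of all genes under each setting for which both were computed; they were not computed for lists of equal length without gene-free stretches. No paired analysis was possible because each line had 1 library. Depth is unknown, so weak sites that were missed in 293T cannot be told from closed ones.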
